A study of Homo sapiens with 9 samples.

Results

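The genes described here are 34 genes of the cellular response to low oxygen other than those of glycolysis, listed by name, with earlier results of these data known. All 34 were found by symbol and Entrez number among the 16750 genes of the expression table. PANC-1 is an established human line from a pancreatic ductal carcinoma. Its RNA was sequenced after lentiviral transduction in 3 groups of 3 libraries each. Vector cells received the empty plasmid pLV-EV, SLC22A10_OE cells received pLV-SLC22A10 and SLC22A15_OE cells received pLV-SLC22A15, so both overexpressing groups share the same control libraries. Both transgenes encode organic ion transporters of the SLC22 family. All 3 groups went through puromycin selection and were kept in puromycin in a CO2 incubator, and no low-oxygen exposure is described for any of them. The labels call the cells stable clones, while the sources used here do not say how many clones stand behind a group or which promoter drives the plasmids. An effect of the transgene and a property of the clone that carries it cannot be told apart in this design. Nothing says that the 3 libraries of a group came from separate cultures, so each p-value reflects the spread among these libraries alone, and that spread may be technical.

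As background, HIF1A and EPAS1 encode the alpha subunits of the hypoxia-inducible factors. With oxygen present, prolyl hydroxylases of the EGLN family mark the alpha subunits, VHL recognises the mark, and the proteins are degraded. HIF1AN hydroxylates a further residue that blocks the contact with the coactivators CREBBP and EP300. When oxygen falls, the alpha subunits persist, pair with ARNT and bind a short DNA motif beside genes for blood vessel growth, mitophagy, collagen modification and the sensors themselves. Much of this control acts on protein stability, which RNA levels do not show. In pancreatic ductal carcinoma, a tumour known for dense stroma and poor perfusion, these genes are widely used as markers of low oxygen.

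Libraries held 28.4 to 42.9 M reads, and levels are given in CPM, read counts scaled to the size of the library. At 1 CPM a gene held 27.8 to 43.4 reads, a counting SD of 15.2% to 19.0%. SLC22A10 stood at 80.5 to 91.4 CPM in SLC22A10_OE and at 0 to 0.0281 CPM in the other libraries. SLC22A15 stood at 73.3 to 78.3 CPM in SLC22A15_OE, 5.46 to 6.52 CPM in Vector and 3.44 to 4.12 CPM in SLC22A10_OE. Of 7 ductal and simple epithelial markers, 5 were found by symbol. Their summed level was 436 to 475 CPM in Vector, 532 to 593 CPM in SLC22A10_OE and 287 to 321 CPM in SLC22A15_OE. KRT8, KRT18, KRT19 and SOX9 carried that sum and did not move together. In SLC22A10_OE KRT19 rose from 73.2 ± 7.65 to 216 ± 16.8 CPM (SD, n = 3) and SOX9 rose by a log2 of 0.30, KRT18 fell by 0.70 and KRT8 differed by -0.04 (adjusted p = 0.711), while in SLC22A15_OE KRT8, KRT18 and SOX9 fell and KRT19 differed by -0.06 (adjusted p = 0.684). KRT7 was at 0.103 to 0.563 CPM, and EPCAM and CDH1 were not found by symbol. One library in each group (Vector 1, SLC22A10_OE 3 and SLC22A15_OE 1) held 0.00958% to 0.0151% mitochondrial ribosomal RNA, against 0.0454% to 0.0843% in the others.

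Of the 34 genes, 31 reached 1 CPM in at least 3 libraries and were tested, and EGLN2, CA9 and ANKRD37 did not. Differences were tested with limma on log2(CPM + 1), and a gene was called at a Benjamini-Hochberg adjusted p under 0.05 over all 14554 genes tested. Log2 fold changes are on that scale, which understates the change of genes at low levels. ADM and BNIP3 passed the filter on low values only through the groups in which they were higher, so their counts among the calls carry no weight of their own. In bulk RNA, fewer cells that express a gene and less of its RNA per cell cannot be told apart, here and below.

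SLC22A10_OE cells differed from Vector in most of these genes, above all in NDRG1, STC1, BNIP3L, PPFIA4, EPAS1, CITED2 and ADM, whose means were 2.74 (CITED2) to 8.56 (NDRG1) times those of Vector. Of the 31 tested genes, 18 rose, 5 fell and 8 were not called, so that 74.2% were called. Over all genes tested, 67.2% were called in this comparison, 34.7% higher and 32.5% lower. The share called was thus near the background, while 58.1% of the tested genes were called higher and 16.1% lower. The median log2 difference was 0.29, against 0.00 over all genes, and the median size without sign was 0.68 against 0.32. Centring every library on its own median shifted differences by -0.12 on the log2 scale and gave 16 higher and 7 lower among these genes, with 3875 higher and 6233 lower over all genes in place of 5047 and 4728.

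SLC22A15_OE cells differed from Vector in fewer of them and by less, with CITED2 and BNIP3L higher and AK4, LOX and P4HA1 lower at the head of the list. Of the 31 tested genes, 5 rose, 4 fell and 22 were not called, which is 29.0% called. Over all genes tested, 20.4% were called, 10.8% higher and 9.58% lower. The median log2 difference was -0.04, against 0.01 over all genes, and the median size was 0.13 against 0.12, which is close to the rest of the genes. Under median centring the counts were 3 higher and 4 lower, with 1351 higher and 1683 lower over all genes in place of 1572 and 1394. Columns of the same number deviated together in Vector and SLC22A15_OE. Some columns of different number did so too (correlation 0.35 for Vector 2 with SLC22A15_OE 3), so replicate pairs are not established. A fit of these 2 groups with the column number as a replicate block called 8 higher and 9 lower. It called 5922 of all genes in place of 2966. The block added HIF1A, PLOD1 and PPFIA4 on the higher side. On the lower side it added ADM, ERO1A, KDM3A, VEGFA and WSB1. A term for the libraries of little mitochondrial ribosomal RNA added the same genes. Vector 1 and SLC22A15_OE 1 are such libraries, so the block and the term overlap. Leaving out the library with little mitochondrial ribosomal RNA in each group called 8 higher and 6 lower.

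**Figure D1:**
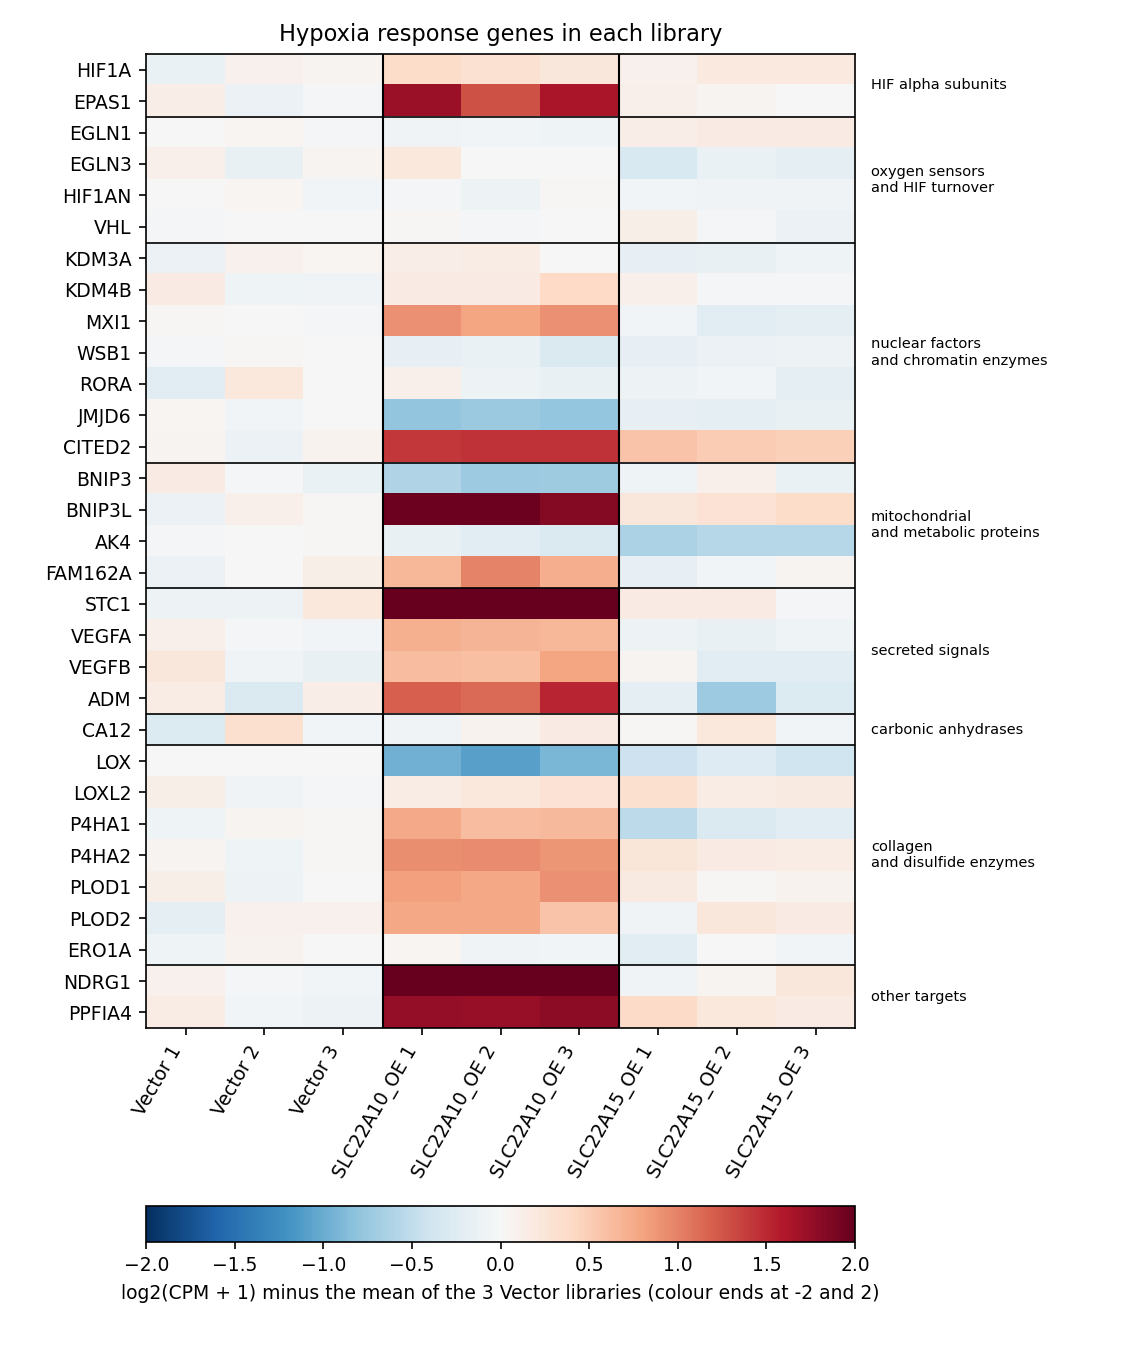
Each of the 31 tested genes (rows, by role) in each of the 9 libraries (columns), coloured by log2(CPM + 1) minus the mean of the 3 Vector libraries, with colour ending at -2 and 2. The 3 SLC22A10_OE libraries are dark red for NDRG1, STC1, BNIP3L and PPFIA4 and blue for LOX and JMJD6, while in SLC22A15_OE AK4 is blue and CITED2 red in all 3 libraries and the bluest single tile is ADM in library 2.

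Both HIF alpha subunits were called higher in SLC22A10_OE, where 34.7% of all genes tested were. HIF1A, the alpha subunit that most cells express, was at 264, 310 and 301 CPM in Vector, 374, 360 and 339 CPM in SLC22A10_OE and 308, 333 and 332 CPM in SLC22A15_OE. Every SLC22A10_OE library lay above every Vector library, and the SLC22A15_OE libraries overlapped the Vector range. HIF1A rose by a log2 of 0.29 (SE 0.06, adjusted p = 0.000925) in SLC22A10_OE. In SLC22A15_OE its difference was 0.16 (95% interval 0.02 to 0.29, adjusted p = 0.0969), and it was called, at 0.12 with an adjusted p of 0.00921, without the 3 libraries of little mitochondrial ribosomal RNA. Those 3 libraries had the lowest HIF1A level of their groups.

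EPAS1 encodes HIF-2 alpha, the subunit best known from endothelium and from kidney cancer. Its level was 2.31, 1.80 and 1.99 CPM in Vector, 8.97, 6.30 and 8.38 CPM in SLC22A10_OE and 2.25, 2.13 and 2.05 CPM in SLC22A15_OE. All 3 SLC22A10_OE libraries stood well clear of the other 6, which overlapped. The SLC22A10_OE mean was 3.88 times that of Vector, a log2 difference of 1.54 (SE 0.12, adjusted p = 2.29e-07). In SLC22A15_OE the difference was 0.06 (95% interval -0.21 to 0.33, adjusted p = 0.808). Of 5 endothelial markers, CDH5 was the 1 found by symbol among the 16750 genes. It was at 0.901 to 1.45 CPM in Vector, 6.24 to 7.65 CPM in SLC22A10_OE and 2.52 to 2.86 CPM in SLC22A15_OE. CDH5 rose with EPAS1 in SLC22A10_OE (log2 1.90, adjusted p = 2.23e-08) and also rose in SLC22A15_OE (0.81, adjusted p = 0.000292), where EPAS1 was not called. The part of CDH5-expressing cells in the EPAS1 difference was not tested. Of 5 leukocyte markers 2 were found by symbol, CD68 and ITGAM. Their summed level was 16.6 to 20.3, 25.4 to 26.6 and 21.1 to 21.8 CPM in Vector, SLC22A10_OE and SLC22A15_OE.

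None of the 4 tested oxygen sensors and HIF turnover genes was called in SLC22A10_OE, where 67.2% of all genes tested were. EGLN1, the main prolyl hydroxylase that marks HIF alpha for degradation, was at 148, 150 and 143 CPM in Vector, 140, 141 and 138 CPM in SLC22A10_OE and 162, 164 and 164 CPM in SLC22A15_OE. The 3 groups did not overlap, with SLC22A10_OE lowest and SLC22A15_OE highest. The log2 difference from Vector was -0.07 in SLC22A10_OE (95% interval -0.16 to 0.02, adjusted p = 0.161), and median centring made it a call on the lower side. EGLN1 rose by 0.16 in SLC22A15_OE (SE 0.04, adjusted p = 0.0172), a call lost under median centring and without Vector 3, SLC22A15_OE 2 or SLC22A15_OE 3, with adjusted p up to 0.0958. Between the 2 overexpressing lines it was higher in SLC22A15_OE by 0.22 (adjusted p = 0.000416).

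EGLN3, a prolyl hydroxylase whose RNA is itself a HIF target, was near the detection floor with 397 reads in all 9 libraries. It was at 1.48, 1.07 and 1.38 CPM in Vector, 1.65, 1.29 and 1.30 CPM in SLC22A10_OE and 0.857, 1.09 and 1.04 CPM in SLC22A15_OE. The groups of each comparison with Vector overlapped. Its difference was 0.06 in SLC22A10_OE (95% interval -0.19 to 0.32) and -0.21 in SLC22A15_OE (95% interval -0.46 to 0.05). EGLN2, the third prolyl hydroxylase, held 134 reads and was not tested. RAB4B-EGLN2, a readthrough gene, shares its exons. How reads of shared exons were counted is not given, so the EGLN2 level may be too high or too low. Its level was 0.308, 0.281 and 0.292 CPM in Vector, 0.568, 0.487 and 0.648 CPM in SLC22A10_OE and 0.445, 0.390 and 0.392 CPM in SLC22A15_OE. These 3 groups did not overlap, and without the filter on low values EGLN2 was called higher in SLC22A10_OE (log2 0.28, adjusted p = 0.0211). HIF1AN, the asparaginyl hydroxylase, differed by -0.04 (95% interval -0.14 to 0.07) in SLC22A10_OE, where median centring called it lower (-0.16, adjusted p = 0.014), and by -0.06 (95% interval -0.17 to 0.04) in SLC22A15_OE. VHL, the recognition subunit of the ubiquitin ligase, stood at 73.0 ± 0.835, 73.0 ± 1.62 and 72.5 ± 5.94 CPM (SD, n = 3) in Vector, SLC22A10_OE and SLC22A15_OE, with intervals of -0.13 to 0.13 and -0.14 to 0.11 for its log2 differences from Vector.

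On the log2(CPM + 1) scale the 3 largest increases in SLC22A10_OE were in genes on chromosome 8, with positions from RefSeq on GRCh38.p14. By the ratio of means, ADM (4.34) and EPAS1 (3.88) exceeded BNIP3L (3.85). NDRG1 (chr8:133237175-133297252), a stress-response protein widely used as a marker of hypoxia, was at 5.66, 5.18 and 5.04 CPM in Vector, 45.6, 45.3 and 45.0 CPM in SLC22A10_OE and 5.02, 5.51 and 6.38 CPM in SLC22A15_OE. The SLC22A10_OE libraries lay within 1 CPM of each other and far above the rest. The mean was 8.56 times that of Vector, a log2 difference of 2.88 (SE 0.09, adjusted p = 3.83e-11). In SLC22A15_OE, whose libraries overlapped those of Vector, the difference was 0.07 (95% interval -0.12 to 0.26, adjusted p = 0.627).

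STC1 (chr8:23841929-23854806) encodes stanniocalcin, a secreted glycoprotein hormone. Its level was 3.999, 4.022 and 5.197 CPM in Vector, 24.6, 23.0 and 23.6 CPM in SLC22A10_OE and 5.02, 5.04 and 4.24 CPM in SLC22A15_OE. Again the SLC22A10_OE libraries alone stood apart, with a mean 5.39 times that of Vector and a log2 difference of 2.20 (SE 0.10, adjusted p = 1.57e-09). The difference in SLC22A15_OE was 0.10 (95% interval -0.13 to 0.32, adjusted p = 0.573).

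BNIP3L and BNIP3 encode related receptors on the outer mitochondrial membrane that mark mitochondria for removal by autophagy, and they moved in opposite directions in SLC22A10_OE. BNIP3L (chr8:26383054-26413127) was at 35.0, 40.8 and 38.5 CPM in Vector, 150, 152 and 138 CPM in SLC22A10_OE and 44.7, 46.6 and 49.3 CPM in SLC22A15_OE. The 3 groups did not overlap. BNIP3L rose by 1.92 (SE 0.07, adjusted p = 1.03e-10) in SLC22A10_OE, where its mean was 3.85 times that of Vector, and by 0.29 (SE 0.07, adjusted p = 0.00617) in SLC22A15_OE. BNIP3, with 513 reads in all, was at 2.34, 1.91 and 1.72 CPM in Vector, 0.956, 0.801 and 0.827 CPM in SLC22A10_OE and 1.81, 2.21 and 1.70 CPM in SLC22A15_OE. BNIP3 fell by 0.68 in SLC22A10_OE (SE 0.12, adjusted p = 0.00021), with no overlap of the groups, and differed by -0.04 (95% interval -0.29 to 0.22) in SLC22A15_OE. Its locus overlaps PPP2R2D, a phosphatase subunit gene that also fell in SLC22A10_OE, by 0.30 (adjusted p = 0.000258), and whether reads were shared between the 2 genes was not tested.

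**Figure D2:**
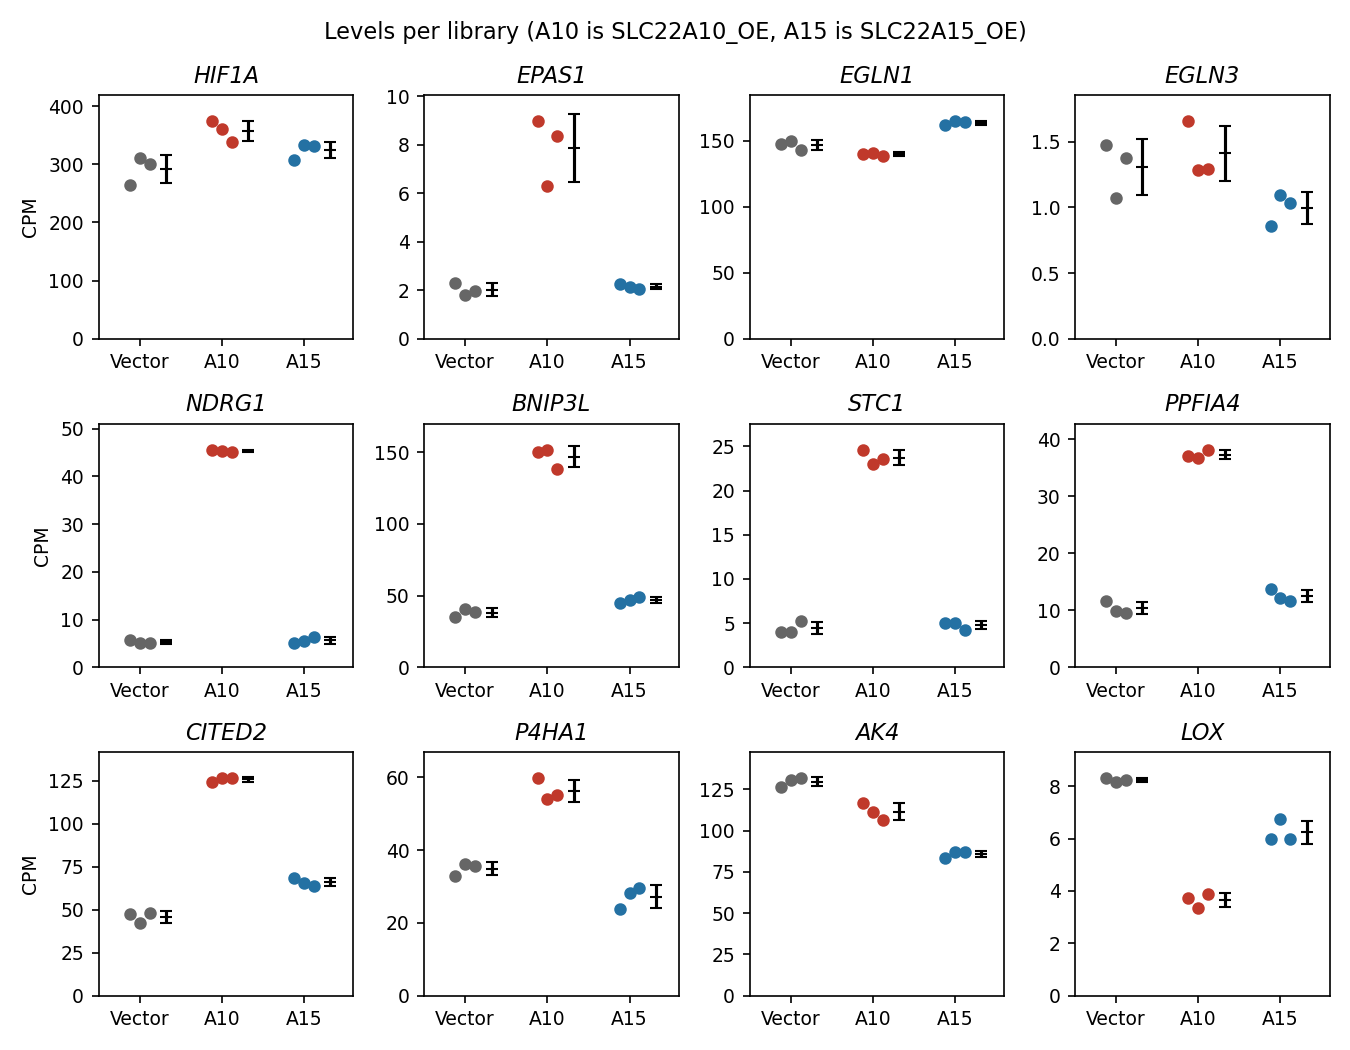
CPM of 12 genes in each library (points), with the mean and SD of the 3 libraries of a group (bar) and vertical axes that start at 0 and differ between genes. NDRG1, STC1, BNIP3L, PPFIA4 and EPAS1 are high in the 3 SLC22A10_OE libraries alone, AK4 is lowest in SLC22A15_OE, and P4HA1 is highest in SLC22A10_OE and lowest in SLC22A15_OE.

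The remaining mitochondrial and metabolic genes split as well. AK4, an adenylate kinase of the mitochondrial matrix, was at 126, 130 and 132 CPM in Vector, 116, 112 and 106 CPM in SLC22A10_OE and 83.6, 86.8 and 86.8 CPM in SLC22A15_OE. The groups were ordered without overlap, SLC22A15_OE lowest. AK4 fell by 0.59 in SLC22A15_OE (SE 0.05, adjusted p = 1.93e-06), the largest change of the 31 genes in that comparison on this scale, and by 0.22 in SLC22A10_OE (SE 0.05, adjusted p = 0.00148). FAM162A, a mitochondrial protein linked to hypoxic cell death, rose in SLC22A10_OE from 24.0 ± 2.06 to 42.5 ± 5.39 CPM (SD, n = 3), a log2 difference of 0.80 (adjusted p = 8.07e-06). It was 23.0 ± 1.87 CPM in SLC22A15_OE. WDR5B, which overlaps FAM162A, rose by 0.46 in SLC22A10_OE (adjusted p = 0.00013), and a sharing of reads between them was not tested.

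All 4 secreted signals were called higher in SLC22A10_OE, where 34.7% of all genes tested were. ADM passed the filter on low values only through SLC22A10_OE, so it carries no weight in that count. None of the 4 was called in SLC22A15_OE by the main test, where 20.4% of all genes tested were called. The 2-group replicate block called VEGFA (adjusted p = 0.0247) and ADM (adjusted p = 0.0232) lower there. A term for the libraries of little mitochondrial ribosomal RNA did so too (0.0275 and 0.0262). The 2 are not independent, as Vector 1 and SLC22A15_OE 1 are such libraries. Beside STC1 the secreted signals were VEGFA, the main growth factor of blood vessels, and VEGFB, its relative that binds VEGF receptor 1. The last was ADM, the precursor of the vasodilator peptide adrenomedullin. VEGFA was at 59.4 to 66.0 CPM in Vector, 98.5 to 102 CPM in SLC22A10_OE and 55.5 to 58.1 CPM in SLC22A15_OE. It rose by 0.68 in SLC22A10_OE (SE 0.05, adjusted p = 1.71e-07), and its SLC22A15_OE libraries were all just under the Vector range (difference -0.11, 95% interval -0.23 to 0.00). VEGFB rose by 0.67 in SLC22A10_OE (SE 0.11, adjusted p = 0.000129), from 15.4 ± 2.30 to 24.9 ± 2.01 CPM (SD, n = 3). ADM was at 0.923, 0.422 and 0.901 CPM in Vector, 2.95, 2.80 and 3.99 CPM in SLC22A10_OE and 0.508, 0.0520 and 0.438 CPM in SLC22A15_OE, with 439 reads in all. Its mean in SLC22A10_OE was 4.34 times that in Vector (log2 1.28, SE 0.17, adjusted p = 2.22e-05). Its difference in SLC22A15_OE was -0.40 (95% interval -0.77 to -0.03, adjusted p = 0.127), and its Vector mean was 2.25 times the SLC22A15_OE mean. DESeq2 on the recovered reads called ADM lower there (adjusted p = 0.0402), and edgeR did not.

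PPFIA4, which encodes a liprin scaffold protein, was at 11.5, 9.90 and 9.57 CPM in Vector, 37.1, 36.7 and 38.1 CPM in SLC22A10_OE and 13.7, 12.1 and 11.6 CPM in SLC22A15_OE. SLC22A10_OE was far above the rest, and the lowest SLC22A15_OE library lay just above the highest of Vector. PPFIA4 rose by 1.76 in SLC22A10_OE (SE 0.09, adjusted p = 2.11e-09), a ratio of means of 3.61. In SLC22A15_OE the difference was 0.25 (95% interval 0.06 to 0.43, adjusted p = 0.0574). It was called in 5 of the alternatives, with adjusted p of 0.00377 to 0.0409. These included DESeq2 on the recovered reads and the fits without Vector 1 and without the libraries of little mitochondrial ribosomal RNA. The others, a term for those libraries and the 2-group replicate block, overlap, as Vector 1 and SLC22A15_OE 1 are such libraries.

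Among nuclear factors and chromatin enzymes, CITED2 and MXI1 rose and JMJD6 fell in SLC22A10_OE. CITED2 competes with the HIF alpha subunits for CREBBP and EP300 and is itself a HIF target. It was at 47.7, 42.0 and 48.2 CPM in Vector, 124, 127 and 127 CPM in SLC22A10_OE and 68.5, 65.9 and 64.0 CPM in SLC22A15_OE. The 3 groups were well separated, and CITED2 rose in both lines, by 1.44 (SE 0.06, adjusted p = 4.84e-10) in SLC22A10_OE and by 0.52 (SE 0.06, adjusted p = 3.25e-05) in SLC22A15_OE. MXI1, a partner of MAX that opposes MYC, rose by 0.87 in SLC22A10_OE (adjusted p = 5.13e-07), from 11.5 ± 0.200 to 21.9 ± 1.13 CPM (SD, n = 3), and was 10.3 ± 0.683 CPM in SLC22A15_OE.

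JMJD6, an oxygen-dependent hydroxylase of the nucleus, fell by 0.77 in SLC22A10_OE (adjusted p = 4.83e-08), from 55.6 ± 1.77 to 32.2 ± 0.511 CPM (SD, n = 3). It overlaps METTL23, which differed by -0.11 in SLC22A10_OE (adjusted p = 0.117). In SLC22A15_OE JMJD6 fell by 0.17 (adjusted p = 0.0373), a call lost in 8 of 20 alternative analyses with adjusted p up to 0.130. WSB1, a substrate receptor of a ubiquitin ligase, fell by 0.20 in SLC22A10_OE (adjusted p = 0.00404) and differed by -0.13 (95% interval -0.24 to -0.02, adjusted p = 0.0981) in SLC22A15_OE. KDM4B and KDM3A encode histone demethylases that remove methyl groups from lysine 9 of histone H3. KDM4B was called higher in SLC22A10_OE by 0.24 (adjusted p = 0.0193), but its groups overlapped, at 84.3, 70.7 and 71.3 CPM in Vector and 84.2, 83.9 and 99.5 CPM in SLC22A10_OE. The library with little mitochondrial ribosomal RNA was the highest of each group for KDM4B, and the call was lost under median centring and without Vector 2, Vector 3 or SLC22A10_OE 3, with adjusted p up to 0.191. KDM3A differed by 0.09 (95% interval -0.04 to 0.23) in SLC22A10_OE and -0.14 (95% interval -0.27 to 0.00) in SLC22A15_OE. A term for the libraries of little mitochondrial ribosomal RNA called KDM3A higher in SLC22A10_OE (adjusted p = 0.0298). Without those libraries it was called lower in SLC22A15_OE (adjusted p = 0.00407). Between the lines it was lower in SLC22A15_OE by 0.23 (adjusted p = 0.00656), a call lost under median centring (adjusted p = 0.0893). RORA, a nuclear receptor, differed by -0.05 (95% interval -0.30 to 0.20) in SLC22A10_OE and -0.12 (95% interval -0.37 to 0.13) in SLC22A15_OE.

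ANKRD37, an ankyrin repeat gene with a strong HIF response in many cells, held 176 reads in all and was not tested. It was at 0.338, 0.394 and 0.345 CPM in Vector, 0.982, 1.32 and 0.791 CPM in SLC22A10_OE and 0.254, 0.208 and 0.369 CPM in SLC22A15_OE. Each SLC22A10_OE library exceeded each of the other 6, and without the filter on low values ANKRD37 was called higher there (log2 0.57, adjusted p = 0.0006). It overlaps LRP2BP and UFSP2, which both fell in SLC22A10_OE. The carbonic anhydrases, cell surface enzymes that regulate pH, were barely detected. CA9, among the best known HIF targets, held 78 reads in the 9 libraries and was at 0.0281 to 0.215 CPM in Vector, 0.172 to 0.413 CPM in SLC22A10_OE and 0.0635 to 0.461 CPM in SLC22A15_OE, with all groups overlapping. CA12 was at 1.02 ± 0.430, 1.07 ± 0.160 and 1.08 ± 0.197 CPM (SD, n = 3) in Vector, SLC22A10_OE and SLC22A15_OE, and intervals of -0.27 to 0.38 for both log2 differences from Vector show the limit of that depth.

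Of the 7 collagen and disulfide enzymes, 5 rose and LOX fell in SLC22A10_OE. That is 85.7% called, against 67.2% of all genes tested, and 71.4% called higher, against 34.7%. PLOD1 and PLOD2 hydroxylate lysines of collagen, and P4HA1 and P4HA2 encode catalytic subunits of collagen prolyl hydroxylase. PLOD1 rose by 0.83 (adjusted p = 1.02e-07), from 171 ± 13.2 to 305 ± 14.2 CPM (SD, n = 3), and was 182 ± 10.1 CPM in SLC22A15_OE. PLOD2 rose by 0.71 (adjusted p = 2.34e-05), from 34.2 ± 3.75 to 56.5 ± 4.62 CPM (SD, n = 3), and was 37.0 ± 3.95 CPM in SLC22A15_OE. P4HA2 rose by 0.92 in SLC22A10_OE (adjusted p = 2.88e-08), from 32.8 ± 1.80 to 62.9 ± 1.66 CPM (SD, n = 3). In SLC22A15_OE P4HA2, at 37.3 ± 1.42 CPM, rose by 0.18 (adjusted p = 0.0467), a call lost in 13 of 20 alternative analyses.

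P4HA1 was the 1 gene called in opposite directions in the 2 lines. It was at 32.8, 36.2 and 35.5 CPM in Vector, 59.79, 54.03 and 55.04 CPM in SLC22A10_OE and 23.8, 28.2 and 29.7 CPM in SLC22A15_OE. The 3 groups did not overlap, with SLC22A10_OE above and SLC22A15_OE below Vector. P4HA1 rose by 0.68 (SE 0.08, adjusted p = 8.04e-06) in SLC22A10_OE and fell by 0.35 (SE 0.08, adjusted p = 0.00746) in SLC22A15_OE. Directly between the lines the difference was -1.02 (SE 0.08, adjusted p = 2.94e-07), SLC22A15_OE being lower.

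LOX and LOXL2 encode copper-dependent oxidases that crosslink collagen and elastin. LOX was at 8.31, 8.16 and 8.25 CPM in Vector, 3.75, 3.35 and 3.89 CPM in SLC22A10_OE and 5.97, 6.76 and 5.99 CPM in SLC22A15_OE. The groups were separate, SLC22A10_OE lowest. LOX fell by 0.99 in SLC22A10_OE (SE 0.09, adjusted p = 7.55e-07) and by 0.35 in SLC22A15_OE (SE 0.09, adjusted p = 0.0141), the second call being lost without SLC22A15_OE 1 or SLC22A15_OE 3, with adjusted p up to 0.0584. Its locus overlaps SRFBP1, which fell by 0.72 in SLC22A10_OE (adjusted p = 1.33e-05) and differed by -0.09 in SLC22A15_OE (adjusted p = 0.541), and a sharing of reads was not tested.

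LOXL2 (chr8:23296897-23404120) was at 413, 363 and 372 CPM in Vector, 425, 441 and 466 CPM in SLC22A10_OE and 479, 423 and 430 CPM in SLC22A15_OE. Both lines lay above the Vector range by a small margin. The log2 increase was 0.22 in each line (SE 0.06, adjusted p = 0.00677 in SLC22A10_OE and 0.0238 in SLC22A15_OE). The first call was lost under median centring, with an adjusted p of 0.161, and the second without Vector 2, Vector 3 or SLC22A15_OE 1, with adjusted p up to 0.0978. ERO1A, an oxidase that recharges the disulfide machinery of the endoplasmic reticulum and a known HIF target, was at 181 ± 10.1, 177 ± 7.85 and 169 ± 12.7 CPM (SD, n = 3) in Vector, SLC22A10_OE and SLC22A15_OE. Its log2 differences from Vector were -0.03 (95% interval -0.16 to 0.11) and -0.10 (95% interval -0.23 to 0.03).

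**Figure D3:**
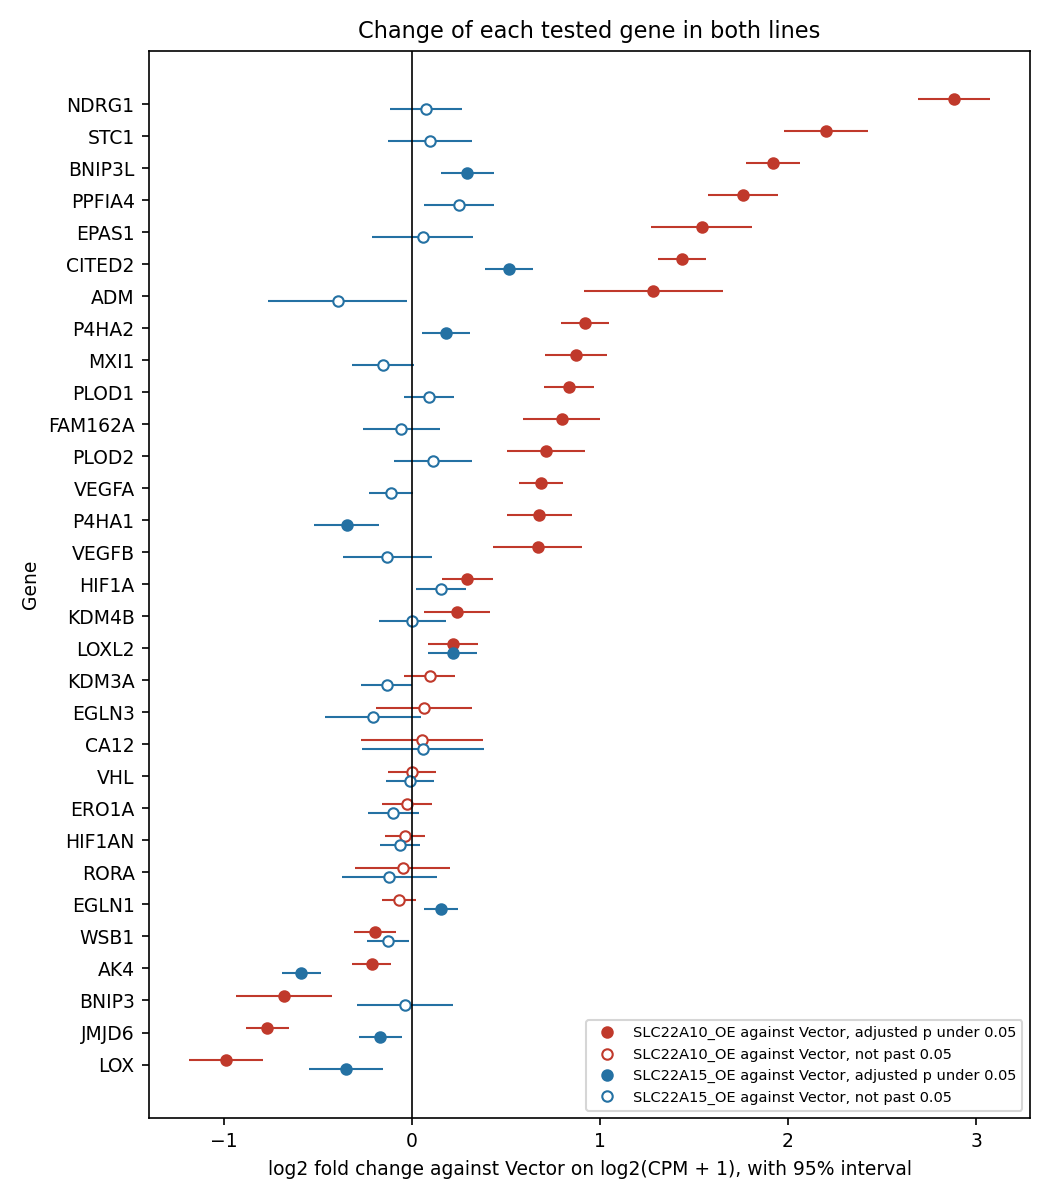
Log2 fold change of each tested gene against Vector on the log2(CPM + 1) scale (horizontal axis, with 95% interval) in SLC22A10_OE (red) and SLC22A15_OE (blue), filled where called. Values span -0.99 for LOX to 2.88 for NDRG1 in SLC22A10_OE and -0.59 for AK4 to 0.52 for CITED2 in SLC22A15_OE, and both colours share the Vector libraries.

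Side by side, 4 genes were called higher in both lines (BNIP3L, CITED2, LOXL2 and P4HA2) and 3 lower in both (AK4, JMJD6 and LOX). Both comparisons use the same Vector libraries, so they are not independent. A further 13 genes were called higher in SLC22A10_OE and not in SLC22A15_OE, BNIP3 and WSB1 lower in SLC22A10_OE and not in SLC22A15_OE, and EGLN1 higher in SLC22A15_OE and not in SLC22A10_OE. Over all genes tested, 67.2% were called in SLC22A10_OE and 20.4% in SLC22A15_OE. How many of all genes were called in both lines, or in 1 line alone, was not counted here. These overlaps thus have no background to be set against. The difference between the lines was tested directly. Against SLC22A10_OE, SLC22A15_OE had 18 of the 31 genes lower, 4 higher (BNIP3, EGLN1, JMJD6 and LOX) and 9 not called. Over all genes tested, 62.9% were called in that comparison, 30.8% higher and 32.1% lower. Centring on medians shifted it by 0.09 and gave 5 higher and 16 lower, with 5798 higher and 3713 lower over all genes in place of 4484 and 4674. The largest gaps on the log2(CPM + 1) scale were in NDRG1 (-2.81, adjusted p = 3.34e-10), STC1 (-2.10, adjusted p = 6.14e-09) and ADM (-1.68, adjusted p = 2.8e-06). Of the 13 genes called higher only against Vector in SLC22A10_OE, HIF1A alone was not called between the lines (-0.14, 95% interval -0.27 to -0.01, adjusted p = 0.0649), and 5 alternatives called it lower in SLC22A15_OE, among them the fit without the libraries of little mitochondrial ribosomal RNA (adjusted p = 0.00116). WSB1 differed by 0.07 (95% interval -0.04 to 0.18) and was called higher in SLC22A15_OE under median centring (0.16, adjusted p = 0.0175). LOXL2 differed by 0.00 (95% interval -0.13 to 0.13).

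The promoters of these genes, whatever their call, were read for the motif of the hypoxia-inducible factors. The pentamers ACGTG and GCGTG were searched on both strands from 250 bases before to 50 bases after the RefSeq start (GRCh38.p14), using the first entry of each gene. An entry was matched for 27 of the 34 genes, and for NDRG1, BNIP3L, STC1, LOXL2, VEGFA, VHL and JMJD6 none was. The 250 upstream bases are shown for the 4 genes of largest log2 increase among those with an entry, 5′ to 3′ on the strand of the gene, with every match on either strand in capitals.
PPFIA4, chr1:203026241-203026490, plus strand: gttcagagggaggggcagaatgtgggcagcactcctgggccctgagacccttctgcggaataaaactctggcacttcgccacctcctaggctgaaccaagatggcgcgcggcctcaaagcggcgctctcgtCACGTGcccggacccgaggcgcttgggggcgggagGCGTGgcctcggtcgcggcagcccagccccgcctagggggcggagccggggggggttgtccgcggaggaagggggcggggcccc
EPAS1, chr2:46297157-46297406, plus strand: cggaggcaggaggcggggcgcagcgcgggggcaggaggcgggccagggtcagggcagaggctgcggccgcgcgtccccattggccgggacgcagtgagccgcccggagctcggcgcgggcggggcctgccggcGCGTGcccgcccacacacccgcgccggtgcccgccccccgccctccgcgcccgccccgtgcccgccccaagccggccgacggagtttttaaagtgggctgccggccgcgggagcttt
CITED2, chr6:139374649-139374898, minus strand: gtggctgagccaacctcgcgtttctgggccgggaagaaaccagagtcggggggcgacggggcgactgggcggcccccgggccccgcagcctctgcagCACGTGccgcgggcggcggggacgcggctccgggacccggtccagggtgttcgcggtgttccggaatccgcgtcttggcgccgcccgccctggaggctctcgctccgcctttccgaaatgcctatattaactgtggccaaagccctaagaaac
ADM, chr11:10304823-10305072, plus strand: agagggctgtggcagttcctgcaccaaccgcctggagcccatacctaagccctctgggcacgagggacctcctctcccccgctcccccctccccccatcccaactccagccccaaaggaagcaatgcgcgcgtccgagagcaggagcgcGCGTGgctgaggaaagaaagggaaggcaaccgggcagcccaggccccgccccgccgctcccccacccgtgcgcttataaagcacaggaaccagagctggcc
In PPFIA4 and CITED2 the match is CACGTG, a palindrome that holds ACGTG on both strands and begins 119 and 153 bases before the start. PPFIA4 also holds GCGTG 84 bases before the start, and EPAS1 and ADM hold a single GCGTG, 117 and 101 bases before it. P4HA2 and MXI1, also called higher in SLC22A10_OE, hold neither pentamer in the searched window. A match describes the letters of the window and is not evidence of a bound site.

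Over the 27 matched promoters, ACGTG was present in 15, or 55.6%, against 21.6% of all 27305 promoters in the table and 26.5% of the 11161 that belong to tested genes. GCGTG was in 51.9% of the 27, against 36.3% of all and 50.5% of those of tested genes. The excess over the tested genes was thus in ACGTG, and GCGTG was about as common as among them. The genes were listed by name for their response to low oxygen. The excess therefore describes that list and says nothing about the differences between the groups. CACGTG, also the core of other factors' sites, was in 8 of the 27, or 29.6%, against 7.43% and 9.96%. Among matched genes, ACGTG was in 6 of 13 called higher in SLC22A10_OE and 4 of 4 called lower (AK4, BNIP3, LOX and WSB1). It was in 2 of 7 not called and 3 of 3 not tested. These counts leave out NDRG1, STC1, BNIP3L, LOXL2 and VEGFA, called higher, and JMJD6, called lower, which had no entry. Whether presence of ACGTG followed the direction was not tested. LOX held 4 matches to ACGTG, the most of the 27.

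NDRG1, STC1, BNIP3L and LOXL2 lie on chromosome 8, where tested genes as a whole were higher in both lines. The chromosome's 449 tested genes had a median log2 difference of 0.13 in SLC22A10_OE, with 43.7% called higher and 22.5% lower, and of 0.18 in SLC22A15_OE, with 39.9% called higher and 7.80% lower. For each member the tested genes within 5 Mb were taken as neighbours. In SLC22A10_OE, NDRG1 had 9 neighbours with a median of -0.04, none of them at or above its own 2.88. BNIP3L had 66 with a median of 0.41, 2 of them at or above its 1.92, and STC1 had 55 with a median of 0.31 and 1 at or above its 2.20. LOXL2, by contrast, was below its neighbourhood, with a median of 0.31 over 51 genes and 27 at or above it.

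In SLC22A15_OE the calls of BNIP3L, LOXL2 and EGLN1 were no larger than the differences around them. BNIP3L rose by 0.29 where its neighbours had a median of 0.39 and 42 of 66 were at or above it. LOXL2 rose by 0.22 against a median of 0.41, with 39 of 51 at or above it. EGLN1, on chromosome 1, rose by 0.16 against a median of 0.35, with 56 of 69 at or above it. CITED2 stood out from its 37 neighbours, none of which was at or above it in either line. AK4 fell by 0.59 in SLC22A15_OE against a neighbour median of -0.11, with 30 of 36 neighbours at or above it. In SLC22A10_OE its fall of 0.22 was close to the neighbour median of -0.20, with 19 of 36 at or above it. KDM4B, on chromosome 19, rose there by 0.24 against a median of 0.18, with 101 of 221 at or above it. DNA copy number was not measured, and its part in these values was not tested.

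**Figure D4:**
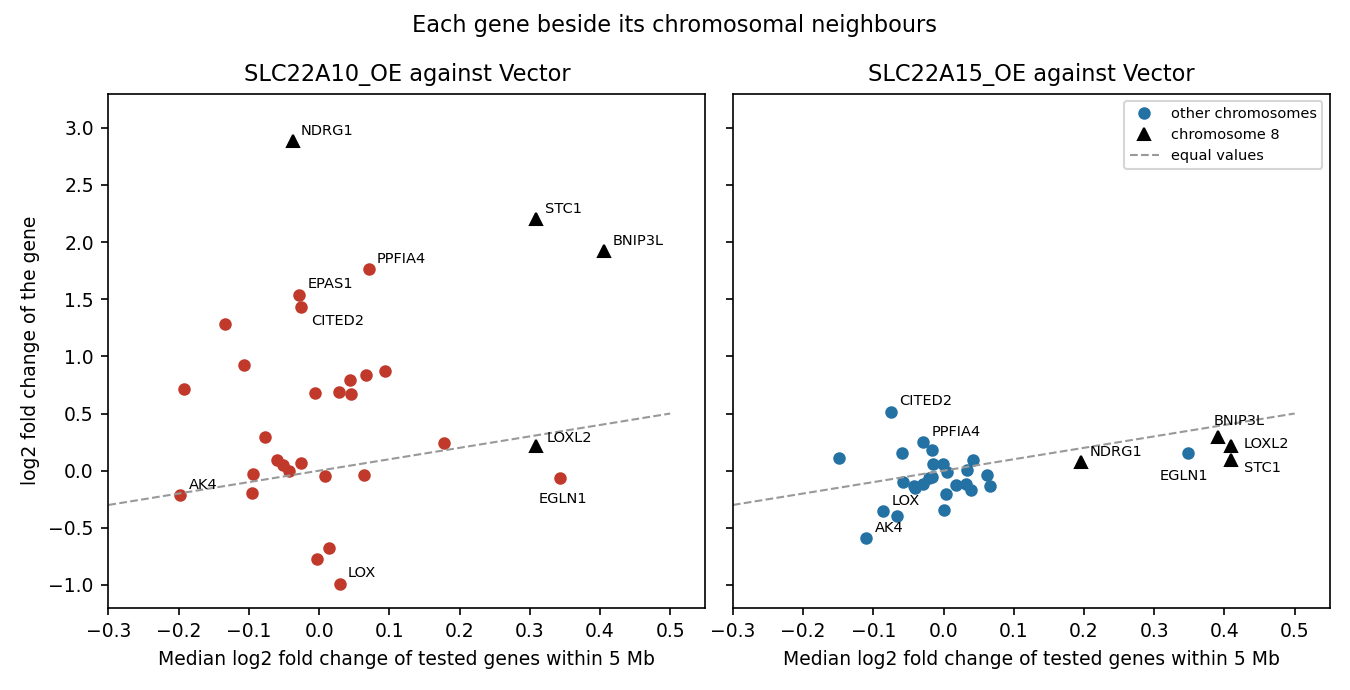
Log2 fold change of each tested gene (vertical axis) against the median of the tested genes within 5 Mb of it (horizontal axis) in each line, with genes on chromosome 8 as black triangles, genes on other chromosomes as red or blue circles and equal values on the dashed line. NDRG1, STC1 and BNIP3L lie far above the line in SLC22A10_OE, while in SLC22A15_OE the 4 genes of chromosome 8 and EGLN1 lie below it with neighbour medians of 0.20 to 0.41.

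Genes around these in the pathway, taken from further lists, gave mixed directions. Of 13 tested HIF partner and machinery genes (of 14 listed), 5 rose and 7 fell in SLC22A10_OE, and 1 rose and 2 fell in SLC22A15_OE. That is 92.3% and 23.1% called, against 67.2% and 20.4% of all genes tested. ARNT, the constant partner of the alpha subunits, rose by 0.53 in SLC22A10_OE, from 84.7 ± 2.08 to 123 ± 3.20 CPM (SD, n = 3), and its relative ARNT2 rose by 0.52. P4HTM, a membrane-bound prolyl hydroxylase, rose by 0.65. HSP90AA1, a chaperone that holds HIF1A protein, fell by 0.74 in SLC22A10_OE and by 0.25 in SLC22A15_OE. SIAH2, a ubiquitin ligase for EGLN proteins, fell by 0.43 and 0.32, and the coactivator gene CREBBP fell by 0.27 in SLC22A10_OE. RBX1, a subunit of the VHL ligase, was the 1 that rose in SLC22A15_OE, by 0.26.

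Of 31 tested further hypoxia-induced genes outside glycolysis (of 39 listed), 17 rose and 8 fell in SLC22A10_OE, with a median log2 difference of 0.24. In SLC22A15_OE 5 rose and 13 fell, with a median of -0.18. That is 80.6% and 58.1% called, against 67.2% and 20.4% of all genes. SPAG4, a nuclear envelope protein, rose by 1.99 in SLC22A10_OE and 0.55 in SLC22A15_OE, and the receptor gene MET rose by 1.24 and 0.53. DDIT4, an inhibitor of mTORC1 signalling, rose by 1.61 in SLC22A10_OE, from 48.2 ± 2.74 to 149 ± 9.21 CPM (SD, n = 3). NT5E, an enzyme that makes adenosine, fell by 2.68 and 1.21 in the 2 lines, and CAV1 and TFRC fell by 2.35 and 1.59 in SLC22A10_OE. BHLHE41, a repressor of the circadian clock, fell by 2.23 in SLC22A15_OE, and ANGPTL4, a secreted inhibitor of lipoprotein lipase, fell by 1.54 there.

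Of 21 hypoxia-induced glycolysis genes, all tested, 12 rose and 5 fell in SLC22A10_OE, and 1 rose and 5 fell in SLC22A15_OE. That is 81.0% and 28.6% called, against the same 67.2% and 20.4%. PFKFB4 rose by 1.72 and ENO2 by 1.31 in SLC22A10_OE. The glucose transporter gene SLC2A3 was at 0.114 ± 0.0483 CPM in Vector and 6.46 ± 0.863 CPM (SD, n = 3) in SLC22A10_OE, and it passed the filter on low values only through SLC22A10_OE, so its call carries no weight in that count. The same holds for TMEM45A in the list before, and RAB20 of that list was under 1 CPM in every SLC22A15_OE library. ENO1 and PKM fell by 0.44 and 0.46, and PFKFB3 fell by 0.55 in SLC22A10_OE and 0.50 in SLC22A15_OE. HK2 fell by 0.44 in SLC22A15_OE.

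In the authors' deposited table for SLC22A10_OE, 20 of the 34 genes had a higher and 5 a lower value at an FDR under 0.05, where 62.5% of all 16750 genes passed, 31.8% higher and 30.7% lower. In the authors' deposited table for SLC22A15_OE, 4 were higher and 4 lower, where 17.8% of all genes passed, 9.33% higher and 8.49% lower. The 2 extra increases in SLC22A10_OE are EGLN2 (log2 0.94, FDR 0.0296) and ANKRD37 (log2 1.52, FDR 0.00135) in the authors' deposited table, which was not filtered at 1 CPM.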

How the data were processed

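RNA was sequenced from 9 libraries after ribosomal RNA removal with a strand-specific kit, per the labels' protocols. The authors deposited CPM per gene and library for 16750 genes. A second kind of table, 1 for each overexpressing line, holds log2 fold changes, p-values with FDR, −log10 of the FDR and an F score, per the file headers. The submitters' processing notes list edgeR, without a version, and hg38 and mm9, without a role. Aligner, annotation and use of strand in counting: not given in the sources used here. Whole reads were recovered from the CPM for 100% of values within 0.1 read.

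The 34 genes and all lists were chosen with earlier results of these data known. The main test was limma 3.58.1 (R 4.3.3) on log2(CPM + 1) with a mean trend, with 9 libraries in 1 fit and 6 residual degrees of freedom, on genes with at least 1 CPM in at least 3 libraries (14554), two-sided, adjusted by Benjamini-Hochberg at 0.05. Values in all libraries are printed for the 6 largest changes per line, genes called in opposite directions, HIF1A, EPAS1, the EGLN genes and some others singled out after their values were seen (ADM, ANKRD37, BNIP3, KDM4B). Up to 3 genes per direction are named from each further list. Alternatives were a pseudocount of 0.25, no filter or one at 5 CPM, edgeR 4.0.16 and DESeq2 1.42.0 on recovered reads, median centring, libraries left out, 2 groups in the fit and a replicate block. Added after seeing the data were a term for the libraries of little mitochondrial ribosomal RNA and the block within Vector and SLC22A15_OE.

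Sample titles carry codes other than the column numbers, so the columns are known by group only. Deviations from group means in same-numbered columns correlated at 0.19 to 0.57 between Vector and SLC22A15_OE. This met a rule of at least 0.1 in every pair. Vector 2 with SLC22A15_OE 3 (0.35) and Vector 3 with SLC22A15_OE 2 (0.16) correlated as well. Their other pairs of different number were at -0.48 to -0.26. The libraries of little mitochondrial ribosomal RNA correlated at 0.48 to 0.57 whatever their number. The block is thus not evidence of replicate pairs. The range for same-numbered columns was -0.41 to 0.14 between Vector and SLC22A10_OE, which did not meet the rule. Positions and promoters came from RefSeq tables of GRCh38.p14. Overlaps with other genes use those positions without regard to strand.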

Additional observations from a re-analysis of the deposited data

Results flagged for a closer look

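P4HA1, the gene of a catalytic subunit of collagen prolyl hydroxylase, was the 1 gene of the 31 tested whose 2 changes against Vector were called in opposite directions. How many of all genes tested were called so was not counted here. All 3 SLC22A10_OE libraries lay above and all 3 SLC22A15_OE libraries below the Vector libraries. The difference between the lines, tested directly with limma, was -1.02 on the log2(CPM + 1) scale (adjusted p = 2.94e-07), SLC22A15_OE being lower than SLC22A10_OE.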

How the results depend on the processing

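In SLC22A10_OE against Vector, 21 of the 23 calls kept direction and threshold in every alternative in which the gene was tested, the exceptions being KDM4B and LOXL2. Leaving out 1 library gave 17 to 18 higher and 5 lower. No call reversed in any alternative. In SLC22A15_OE against Vector, where 5 were higher and 4 lower, the counts depended on the analysis. The number higher was 3 without the chromosome 8 genes and 3 with libraries centred on their medians. It was 8 without the libraries of least mitochondrial ribosomal RNA, 8 with a term for them and 8 with the 2-group replicate block. Leaving out 1 library in turn gave 2 to 6 higher, the lowest without Vector 3 and 3 without Vector 2 or any of SLC22A15_OE 1, 2 or 3. The number lower was 9 with the term and 9 with the 2-group block, and leaving out 1 library gave 2 to 4, with 2 without SLC22A15_OE 1 or 3. All genes called numbered 4494, 5608 and 5922 without those libraries, with the term and with the 2-group block, against 2966. Vector 1 and SLC22A15_OE 1 are such libraries and share a column number, so the term and the 2-group block are not independent. A block over all 9 libraries gave 4 higher and 3 lower there, losing JMJD6 and P4HA2, and changed no call in the other comparisons. The causes were not tested. Low read counts limit CA9, CA12, EGLN2, EGLN3 and ANKRD37 most, and for EGLN2 the unknown counting of shared exons is a further limit.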
